A study of Mus musculus with 2 samples.

Results

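The B-class ephrins (Efnb1, Efnb2 and Efnb3) and their EphB receptors (Ephb1, Ephb2, Ephb3, Ephb4 and Ephb6) were examined in endothelial cells of the embryonic mouse kidney. Members were chosen by name, and every probe set that the platform annotation gives to exactly 1 of these 8 genes was used. This gave 12 probe sets of 7 genes, 3 ephrins and 4 receptors, out of 34945 probe sets of 18193 genes on the array. No probe set was given to Ephb2 in the annotation used, which is not analysed here, and 0 probe sets were shared between a member and another gene. The gene IDs of all 7 measured members were found in the current mouse gene table with unchanged symbols.

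The series holds 1 group of 2 samples, called replicate 1 and replicate 2. Each was a pool of about 5 to 10 kidneys from E15.5 embryos (Theiler stage 23) of CD-1 mice with the transgene Tg(TIE2GFP)287Sato, in which the Tie2 (Tek) promoter drives GFP, and the cells were sorted by their fluorescence after trypsin treatment. Both samples carried the transgene, and there was no unsorted or GFP-negative control, no other age and no treatment. The sample titles use the name FLK1 although the reporter is Tie2, the labelled source is the lining of the renal artery and vein although whole kidneys were dissociated, and nothing in the labels says that the pools came from separate litters. The spread between the arrays may therefore be technical in part.

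Ephrins and Eph receptors are both membrane proteins, so they signal where cells touch. B-class ephrins span the membrane and signal back into the cell that carries them (reverse signalling), while the Eph receptor on the neighbour signals forward through its tyrosine kinase. In blood vessels ephrin-B2 is known as a mark of arteries and EphB4, its main partner there, as a mark of veins, and mouse embryos that lack either fail to remodel their first vessels.

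Intensities have arbitrary units, and where a pair of values is given the first is replicate 1 and the second replicate 2. Intensities depend on probe sequence, so levels were not compared between genes, and different probe sets of 1 gene were compared only to choose the brightest to stand for it. A probe set was called above background if it exceeded, on both arrays, the 95th percentile of 83 probe sets for olfactory, vomeronasal and taste receptors, which was 202.5 and 204.1. The label of the cells was checked against endothelial markers, and 12 of 12 were above background, with Tek at 15908 and 21499 and Kdr (the receptor also called Flk1) at 8939 and 12139. Markers of other cells were counted in the same way, beside 61.0% of all genes above background. The counts were 8 of 8 for macrophages, 9 of 10 for renal stroma and 4 of 7 for mural cells. For ureteric bud and other epithelium the count was 4 of 8, for nephron progenitors 3 of 6 and for erythroid cells 2 of 4. It was 1 of 3 for podocytes, 0 of 3 for the early nephron and 0 of 4 for nerve and glia. Among these other cells, only the macrophage and renal stroma counts lay above the share of all genes. The part of these cells in the member values was not tested, except for the values given beside a difference below.

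Ephrin-B2 and EphB4 are the members described above for blood vessels. The stretch of DNA before each of their genes is therefore shown, as RefSeq gives it in build GRCm38.p6. Each holds the 250 bases up to the gene start, read in the direction of the gene, with capitals marking CCAAT and GGGCGG on either strand, which are common promoter elements. Neither motif overlaps the other in these stretches. The Efnb2 stretch lies at chr8:8661243-8661492 on the minus strand and the Ephb4 stretch at chr5:137349859-137350108 on the plus strand.
Efnb2: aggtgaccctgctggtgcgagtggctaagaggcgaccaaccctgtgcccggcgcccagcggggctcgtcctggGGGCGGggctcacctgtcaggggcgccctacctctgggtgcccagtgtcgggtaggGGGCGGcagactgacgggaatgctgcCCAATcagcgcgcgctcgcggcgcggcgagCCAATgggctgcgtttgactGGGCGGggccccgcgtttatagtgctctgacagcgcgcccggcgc
Ephb4: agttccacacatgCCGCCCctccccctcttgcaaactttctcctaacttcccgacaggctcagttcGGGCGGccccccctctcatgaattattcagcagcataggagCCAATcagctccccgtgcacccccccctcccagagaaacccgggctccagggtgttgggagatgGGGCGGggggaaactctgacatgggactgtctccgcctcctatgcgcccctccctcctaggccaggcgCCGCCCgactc

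Both stretches hold both motifs. CCAAT is found 2 times before Efnb2 and 1 time before Ephb4, and GGGCGG 3 times before Efnb2 and 4 times before Ephb4. Of 32851 windows of the same length, 33.8% hold CCAAT and 32.7% hold GGGCGG. Windows were found for 7 of the 8 listed genes, Ephb2 included and Efnb3 not, and 5 of these hold CCAAT and 4 hold GGGCGG. The motif TTCCTG, a longer form of the site of the ETS factors that are central to endothelium, was found before Efnb1 alone of the 7. Of all windows, 25.7% hold it. The shorter ETS core, GGAA or TTCC by strand, was not counted, and both stretches shown above hold it. TGGGAA, the core bound by the Notch effector Rbpj, was likewise found before Efnb1 alone, against 21.6% of all windows. The GC content of the members' windows ran from 54.0% for Ephb1 to 76.8% for Ephb6, against a median of 52.4% over all windows. A match describes these letters only, and its use by a factor was not measured.

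Of the 12 member probe sets, 8 (66.7%) were above background on both arrays, against 55.0% of all 34945 probe sets with 1 gene. Counted by gene, with the brightest probe set over both arrays standing for a gene, 6 of 7 were above background, against 61.0% of all 18193 genes. The 6 were all 3 ephrins and the receptors Ephb1, Ephb3 and Ephb4, and Ephb6 was the exception. With so few members these shares are a description.

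**Figure D1:**
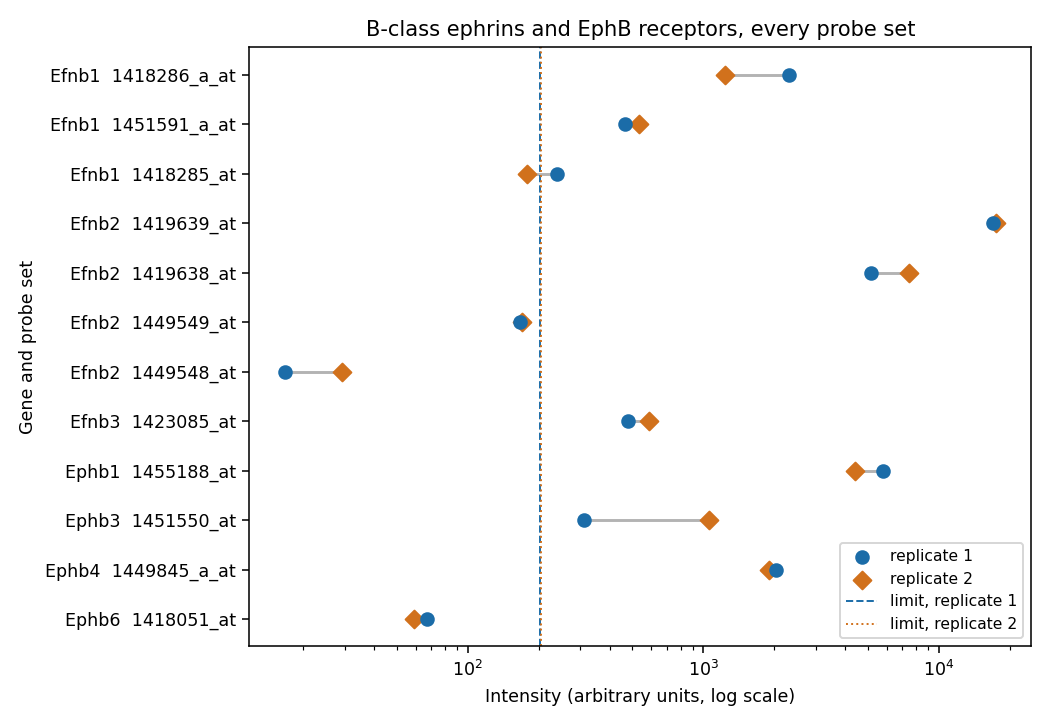
Intensity (x axis, arbitrary units, log scale) of each member probe set (rows) in replicate 1 (blue circles) and replicate 2 (orange diamonds), 1 array each, joined by a grey line, with the background limit of each array as a vertical line. Efnb2 has probe sets on both sides of the limit, Ephb6 lies below it on both arrays, and Ephb3 shows the widest gap among probe sets above it.

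Efnb2, the ephrin of arteries, was read by 4 probe sets that fell on both sides of the limit. Probe set 1419639_at gave 16913 and 17388 and 1419638_at gave 5132 and 7428, both well above the limit. The other 2 were below it on both arrays, 1449549_at with 166.6 and 169.6 and 1449548_at with 16.7 and 29.3. The annotation ties all 4 to the same sequence record, so they are 4 readings of 1 gene and not independent members. Such a mixture is not rare on this array, since 44.3% of 9010 genes with several probe sets, and 22.9% of the 1515 whose probe sets all come from 1 record, had some above background and some not. Which part of the transcript each probe set reads was not examined.

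Efnb1, an X-linked ephrin known for sorting cells at tissue boundaries, was read by 3 probe sets. Probe set 1418286_a_at gave 2302 and 1237, so it was the brighter in replicate 1, and 1451591_a_at gave 464.9 and 531.9, slightly brighter in replicate 2. The third, 1418285_at, gave 239.8 and 178.2 and so passed the limit in replicate 1 only. The suffix of the first 2 marks probe sets that match several transcripts of 1 gene. The gene was above background by 2 probe sets, but their differences between the arrays had opposite signs, as was the case for 52.1% of the 4921 genes with several probe sets above background.

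Efnb3, the ephrin best known from the midline of the nervous system, had 1 probe set, with 478.9 and 589.6. It was above the limit on both arrays, at 2.37 and 2.89 times that limit. None of the 4 measured nerve and glia markers was above background on both arrays, and 3 of the 4 passed the limit in replicate 2 alone.

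Of the receptors, Ephb4, the receptor of veins, gave 2032 and 1904, nearly equal in the pools. Ephb1, a receptor that binds all B-class ephrins, gave 5785 and 4388, so it too was above background in both. Ephb3, which is known to guide cell placement in the gut epithelium and acts with Ephb2 in several tissues, gave 312.5 and 1055, above the limit in both but much brighter in replicate 2. Ephb6, a receptor whose kinase domain is inactive, gave 67.4 and 58.9 and was above the limit on neither array. Each receptor had 1 probe set, so no second reading of it was to be had. A reading below the limit does not show that a transcript is absent, as the 4 Efnb2 probe sets show.

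The next question was how far the pools differed in these genes. The difference was log2 of replicate 1 minus replicate 2, after an offset of -0.03 between the arrays was removed. Among all 19204 probe sets with 1 gene above background its SD was 0.51 and its median 0.03. The 8 member probe sets had a median of -0.08, with 3 higher in replicate 1 and 5 higher in replicate 2, against 52.6% of all such probe sets higher in replicate 1. With 1 probe set per gene, the 6 genes above background had a median of 0.06, of the opposite sign. The median size of the difference, whatever its sign, was 0.35 for the members and 0.30 for all. With 1 array per pool there is no test of any of these differences. The spread over probe sets of like brightness is given beside them as a description only. It is a spread over other genes and not the error of 1 gene's difference.

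Ephb3 was the only member probe set past 2-fold (1 of 8), against 4.98% of all probe sets in either direction and 2.71% with replicate 2 higher. It was 3.30-fold higher in replicate 2, a log2 difference of -1.72, where the SD among the 1000 probe sets nearest in brightness was 0.59. Of all probe sets above background, 99.4% had a smaller difference. Efnb1 came next, with 1418286_a_at at 0.93 (1.91-fold, local SD 0.57), while its second probe set above the limit was at -0.16 (local SD 0.58).

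The other members differed by about the local spread or less. The 2 bright Efnb2 probe sets were at -0.01 and -0.50, with local SDs of 0.37 and 0.44. Ephb1 was at 0.43 (local SD 0.45) and Ephb4 at 0.13 (local SD 0.51). Efnb3 was at -0.27 (local SD 0.60). The Ephb4 reading and the brighter Efnb2 reading thus hardly moved between the pools, and the second Efnb2 reading was 1.41-fold higher in replicate 2.

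**Figure D2:**
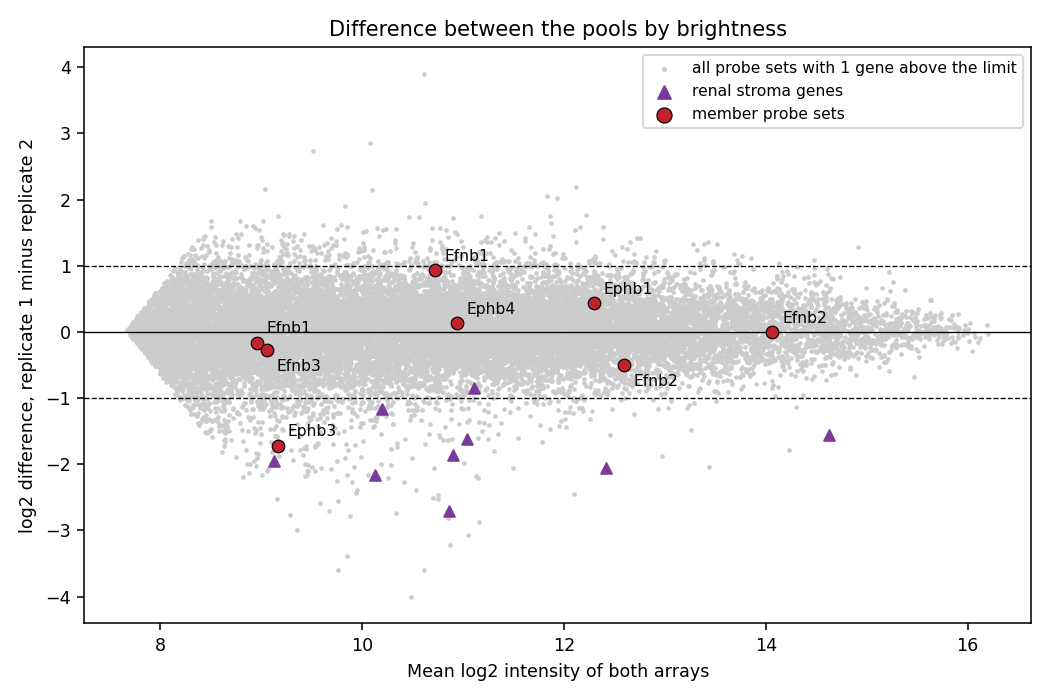
Difference in log2 intensity, replicate 1 minus replicate 2 (y axis), against the mean log2 intensity of both arrays (x axis) for the 8 member probe sets above background (red), renal stroma genes (purple triangles) and all probe sets with 1 gene above background (grey), with dashed lines at 2-fold. Ephb3 at -1.72 lies beyond the line, on the side of the stroma genes, and the other members lie between the lines.

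Markers of renal stroma and mural cells moved between the pools in the direction of Ephb3, as did the podocyte gene Synpo. The 9 renal stroma genes above background had a median difference of -1.86, and all 9 were higher in replicate 2. The summed intensity of all 10 stroma genes was 23483 and 76028, most of it from Col3a1 (14533 and 43894). Such sums cover all measured genes of a list, also those below the limit, and the brightest weigh most. Of the mural genes, 4 of 7 were above background, with a median of -0.61 and sums of 6640 and 11360. Synpo (1012 and 2346) was at -1.18, the only 1 of 3 podocyte markers above background, and made up most of the podocyte sums of 1245 and 2793. The podocyte marker Nphs1 (89.1 and 100.2) was below the limit on both arrays, and Wt1 (144.0 and 346.8) passed it in replicate 2 only. No stroma, mural or podocyte marker was listed at 0. The median over all genes above background was 0.04, that of the 12 endothelial markers 0.18, with sums of 156811 and 142250, and that of the 8 macrophage markers 0.03. The median was -0.30 for the 4 epithelial genes above background, -0.08 for the 3 nephron progenitor genes and -0.13 for the 2 erythroid genes, each with members on both sides of 0. Of the 4 nerve and glia markers none was above background on both arrays, and 3 passed the limit in replicate 2 only. Their sums were 477 and 830. The 3 early nephron markers, also with none above background on both arrays, had sums of 437 and 303. The part of the stroma in the Ephb3 difference was not tested. In such pools fewer cells of a type and less RNA per cell cannot be told apart.

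Genes of arteries and veins were counted beside the Efnb2 and Ephb4 values. Of 14 artery genes 11 were above background, against 61.0% of all genes, with a median difference of -0.02. They included the Notch ligand Dll4 (1264 and 1090), the connexin Gja4 (2595 and 2162) and the Notch target Hey1 (4943 and 7566). The connexin Gja5 (10.1 and 17.1) was below the limit on both arrays, and Hey2 (34.0 and 274.9) and the kinase Bmx (181.8 and 463.4) passed it in replicate 2 only. Of 5 vein genes 4 were above background, with a median of 0.28. Nr2f2, a transcription factor of vein identity, gave 4104 and 3779, the receptor Nrp2 gave 13387 and 10292 and the VEGF-C receptor Flt4 gave 14611 and 11269. Aplnr, which binds apelin, gave 67940 and 74519. The selectin Selp (384.8 and 98.9) passed in replicate 1 only. None of the genes above background in either list differed by over 2-fold.

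Genes for proteins that act below the receptors were nearly all above background, 26 of 28 measured, against 61.0% of all genes. The Src family kinases Src (547.4 and 1050), Fyn (6716 and 6782) and Yes1 (3768 and 4917) and the kinase Abl1 (8917 and 7416) were among them. The adaptor Grb7 passed in replicate 2 only (175.4 and 292.2) and the exchange factor Ngef, ephexin of neurons, on neither array (10.2 and 52.4). Kalrn, an exchange factor for Rac known below EphB2 in neurons, was the 1 of the 26 past 2-fold, at 456.6 and 216.8 (2.16-fold higher in replicate 1), against 4.83% of all genes above background. Its value in replicate 2 lay just above that array's limit of 204.1. The median difference of the 26 was -0.15. This list, like the others, was chosen with earlier results of these data known, so its count is a description and no measure of signalling. Ptk2 and Rock2 had no probe set of their own in the annotation and were not analysed here.

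Of the genes for proteins that act below the B-class ephrins, 14 of 17 were above background, against the same 61.0%. Their median difference was 0.05, with none past 2-fold. The adaptor Nck2 gave 3098 and 3295, Rgs3, a regulator of G protein signalling that binds ephrin-B tails, gave 3296 and 2933, and the PDZ proteins Sdcbp and Pick1 gave 24629 and 28039, and 818.5 and 851.8. The 3 below the limit were the PDZ proteins Grip1 (162.8 and 70.7) and Grip2 (133.6 and 138.6) and the scaffold Cnksr1 (8.24 and 27.7). With each gene taken as the median of its probe sets, 9 of the 17 were above background, so this count rests on the choice of probe set. The share of all genes was not taken under that rule, so 9 of 17 has no share beside it.

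All 8 measured genes for proteases that cut ephrins or Eph receptors, or for parts of such proteases, were above background (61.0% of all genes), with a median difference of -0.08. Adam10, a membrane protease known to cut ephrins, gave 19094 and 20870. The gamma-secretase parts Psen2 (547.5 and 480.2), Ncstn (341.7 and 381.6) and Aph1a (4831 and 3500) were above the limit in both pools. With each gene taken as the median of its probe sets, 6 of the 8 protease genes were above background, and 6 of 8 also at 2 times the limit. The share of all genes was not taken under either setting.

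**Figure D3:**
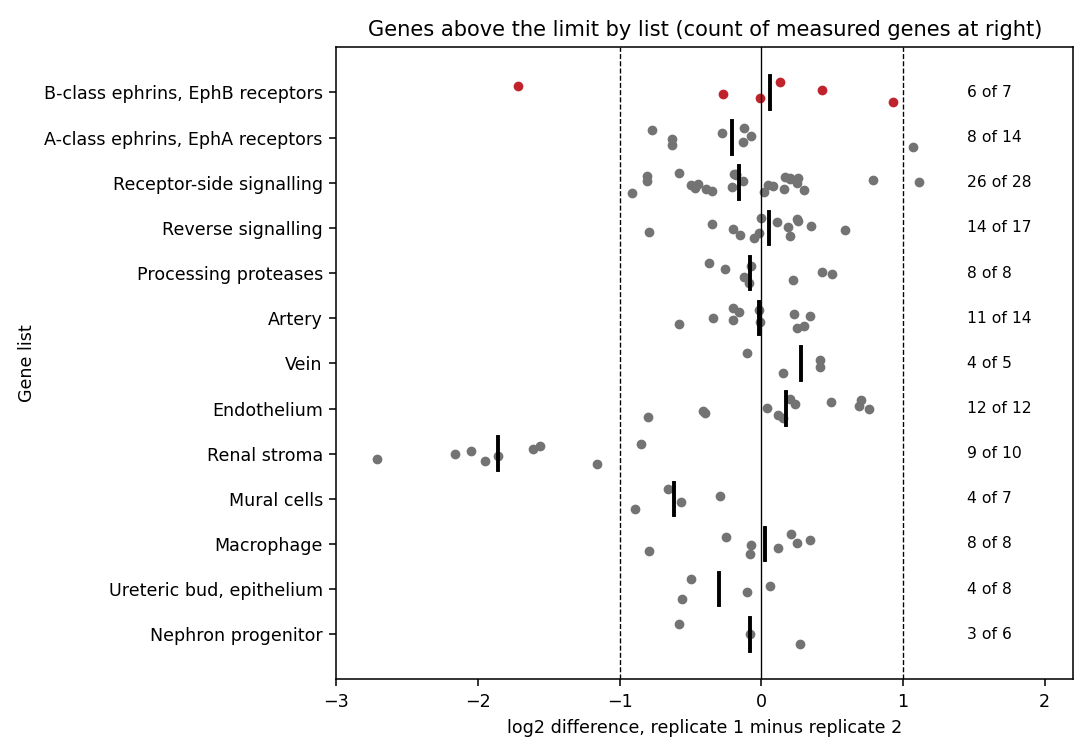
Difference in log2 intensity, replicate 1 minus replicate 2 (x axis), for the genes above background (dots) of each list (rows), with the list's median (black bars), dashed lines at 2-fold and the count above background of all measured genes at the right. The 7 measured members had 6 genes above background with a median of 0.06, and the renal stroma list had a median of -1.86.

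The A-class ephrins and EphA receptors, the genes most like the members, were above background for 8 of 14 genes (median difference -0.21), against 6 of 7 for the B class and 61.0% of all genes. Of these 8 A-class genes, 1 was higher in replicate 1 and 7 in replicate 2. The difference between the A-class and B-class counts was not tested. All 5 A-class ephrins were above background, as were the 3 B-class ephrins, with Efna1 at 4176 and 2039 (2.10-fold higher in replicate 1), Efna2 at 588.8 and 933.0, Efna3 at 294.1 and 330.1 and Efna4 at 208.7 and 330.6. Efna4 in replicate 1 lay just above the limit. Of the receptors, Epha1 (118.5 and 66.2), Epha5 (156.2 and 70.9) and Epha6 (77.2 and 57.3) were below the limit on both arrays. So were Epha8 (159.2 and 13.9) and Epha10 (22.2 and 21.3), and Epha7 (164.0 and 365.6) passed in replicate 2 only. Epha4, which also binds B-class ephrins, gave 639.8 and 710.8, and Efna5, which also binds EphB2, gave 1041 and 1117, so both genes known to cross the classes were above background in both pools.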

How the data were processed

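The deposited values were intensity values of an Affymetrix 3' expression array, 1 per probe set on a linear scale. Per the labels, 2 rounds of amplification came before the biotin label, and the submitters' processing notes name GCOS with no version. The authors had scaled the arrays before deposit, since the means after trimming 2% at each end were 1500.01 on both. Median intensities were 233.4 and 246.7. The study's methods are for a different type of array and were not applied to these, and for the annotation's genome build no source used here gives a name. Of 45101 probe sets, 34945 had 1 gene, 932 several and 64 were controls.

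The background limit came from 83 probe sets of 75 sensory receptor genes, and 1 of the 83 exceeded it on both arrays. Before differences were taken, the arrays were centred on their medians over probe sets above background. With 1 group there is no contrast, no test and no p-value, and the number of arrays limits the precision. The procedure was tested on simulated data in which bright and dim features were well separated. It therefore does not show how calls behave near the limit, where the median intensities of these arrays lie. Members and gene lists were chosen with earlier results of these data known, and the promoter motifs after the sequences were seen. Named genes were all members with every probe set, and, of the signalling, protease, A-class, artery and vein lists, the first 4 measured, up to 4 whose call differed from that of most of the list, in list order, those past 2-fold, and Epha4, Efna5, Tek and Kdr. Synpo, Nphs1, Wt1, Col3a1, Epha8 and Epha10 were named after their values were seen. No gene was named for likeness to a member, since 2 arrays of 1 group hold no pattern across conditions. Alternatives were other limits, each array alone, other probe set choices, quantile normalization, no centring and a pseudocount of 50. Tools were Python 3.11.15, numpy 2.4.6, pandas 2.3.3 and matplotlib 3.10.9.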

Additional observations from a re-analysis of the deposited data

How the results depend on the processing

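Of 80 alternative values, 76 stayed within 1.5 times the count or within 1 SD of the difference, and 4 did not. With only probe sets whose ID has no suffix letter, 5 of 9 member probe sets were above background in place of 8 of 12, since this leaves out 2 probe sets of Efnb1 and that of Ephb4. With genes as the median of their probe sets, 9 of 17 reverse signalling genes were above background in place of 14, and the Efnb1 difference was -0.16 in place of 0.93. At 2 times the limit 0 member probe sets above background differed by over 2-fold, since Ephb3, at 1.54 times the limit in replicate 1, was left out. The count of member genes above background was 5 to 6 at every other limit and 4 of 6 without suffixed probe sets. On each array alone it was 6 of 7, with 9 probe sets in replicate 1 and 8 in replicate 2. No share over all probe sets or genes was taken under these alternatives, so their counts have none beside them. The Ephb3 difference ran from -1.72 to -1.57. Differences between the arrays could not be computed without either replicate, and no paired analysis was possible because there is 1 group. Above the limit but within 3 times of it in replicate 1 lay the probe sets of Efnb3 and Ephb3 and 2 of Efnb1.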
